A study of Mus musculus with 6 samples.

Results

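Glutamate, GABA and glycine carry most of the fast signals between neurons of the spinal cord. The genes described here are 8 that load, make or take up these transmitters: Slc17a6, Slc17a7 and Slc17a8 for glutamate, Slc32a1 for GABA and glycine, Gad1 and Gad2 for GABA, and Slc6a5 and Slc6a9 for glycine. They were chosen by name from the 25576 genes that bulk-seq listed in at least 1 of 6 spinal cord libraries, and all 8 were found. The study compared severe SMA mice with heterozygous controls, mainly to learn how the transcriptome of each cell type is altered. Bulk-seq covered 3 libraries labelled SMA and 3 labelled control, from FVB mice at postnatal day 4. The SMA genotype was mSmn-/-, hSMN22tg/0, so that mouse Smn was knocked out and SMN protein could come only from the human SMN2 transgene. The control genotype was mSmn+/-, hSMN22tg/0, so that control mice lacked 1 of their 2 copies of Smn, kept the other and carried the same transgene.

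A neuron releases the transmitter that its vesicles are loaded with. The vesicular glutamate transporters are encoded by Slc17a6, Slc17a7 and Slc17a8, and the vesicular inhibitory amino acid transporter, encoded by Slc32a1, serves GABA and glycine neurons alike. Both Gad genes encode glutamate decarboxylases, which make GABA from glutamate, whereas glycinergic neurons collect glycine through the plasma membrane transporter encoded by Slc6a5 and glia clear it through that encoded by Slc6a9.

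Values are FPKM, the fragments of a gene scaled to the length of its exons and to the mapped fragments of the library, and a gene absent from a library's list was taken as 0 there. SMA and control were compared with limma on log2(FPKM + 1) over the 17088 genes whose mean reached 0.5 FPKM, and the Benjamini-Hochberg method adjusted p for that number of genes. A log2 fold change is the SMA mean less the control mean of these log2 values, and it understates changes of genes with low FPKM. Per-library values are given in the order of replicates 1, 2 and 3. Read counts were not used and depth in reads is unknown. The commonest ratio of low values put the depth of the libraries between 1.00 and 1.16 of that of SMA replicate 1. The study states triplicates with n = 1 per group, and nothing says that the libraries came from separate animals, so p-values measure only the spread between these samples. In whole cord, fewer cells of a type and less RNA per cell cannot be told apart.

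Smn1, the targeted gene, was at 10.4, 8.64 and 11.9 FPKM in control and at 8.48, 9.30 and 11.1 FPKM in SMA. The groups overlapped (log2 fold change -0.09, standard error 0.15, limma adjusted p = 0.819; -0.20 without control replicate 2, which is described next), so this gene-level value does not check the labels. All directions below therefore rest on the labels.

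Control replicate 2 stood apart from the other 5 libraries before any comparison of groups. Its correlation with them was 0.836 to 0.849 across genes, which are not independent replicates, against at least 0.983 among the others. All 16 hepatocyte markers were highest there, with a summed level of 31062 FPKM against 50.4 to 111 FPKM elsewhere, and albumin (Alb) was the most abundant. The 9 of 10 listed erythroid markers summed to 18856 FPKM against 1115 to 1863 FPKM, led by Hbb-bs. The 8 neutrophil markers summed to 424 FPKM against 6.04 to 12.7 FPKM, led by S100a8. In the same library 12 of 14 neuron markers were at their lowest, all but Meg3 and Snhg11, and the median neuron marker stood at 0.569 of the mean of control replicates 1 and 3. The astrocyte markers had a median of 0.798 by the same measure, and all genes tested a median of 0.889.

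The transmitter genes took part in this drop to unequal degrees. In control replicate 2, Slc32a1 stood at 0.483, Slc6a5 at 0.485, Slc17a6 at 0.539, Gad1 at 0.570, Gad2 at 0.581 and Slc17a8 at 0.600 of the mean of the other control libraries. These 6 genes thus lay around the neuron markers. Slc6a9, the glial glycine transporter, stood at 0.833, between the medians of the astrocyte markers (0.798) and of all genes tested (0.889). The astrocyte markers themselves ranged from 0.660 for Aldoc to 1.85 for Aldh1l1. Slc17a7 was at 0 in control replicate 3 and was not compared in this way. Of the 8 genes, 7 were lowest in control replicate 2, where 44.9% of all genes tested were. Fold changes and ratios of the transmitter genes are therefore given with and without that library, and the part of liver and blood RNA in the drop was not tested.

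**Figure D1:**
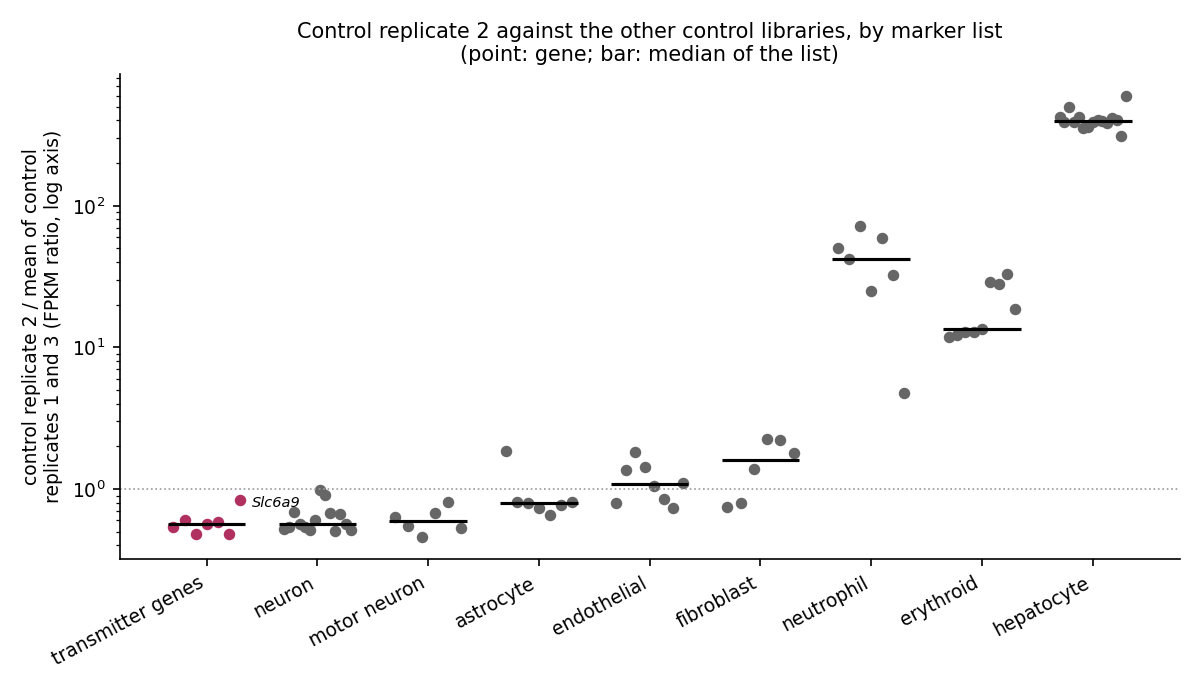
Ratio of FPKM in control replicate 2 to the mean of control replicates 1 and 3 (log axis) for each gene of the transmitter group and of 8 marker lists; bars are list medians, and genes at 0 in control replicate 1 or 3 are left out. Neuron markers had a median of 0.569, astrocyte markers of 0.798 and hepatocyte markers of 397, and Slc6a9 (0.833) lay above the other transmitter genes.

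The start regions of 4 of these genes are shown because their transcripts mark the glutamate, GABA and glycine neurons whose ratios are compared below. RefSeq start sites (GRCm38.p6) were found for all 8 genes, 13 in all, and the bases before the first start are given 5′ to 3′ on the plus strand, ending at the first annotated exon of the gene where that comes sooner. The region of Slc17a6 is chr7:51621580-51621829 and lies before the gene. That of Slc32a1 is chr2:158610508-158610757, which lies before the gene and overlaps an exon of the noncoding gene Gm14204. That of Gad1 is chr2:70561879-70562041, inside the annotated gene and outside its exons. That of Slc6a5 is chr7:49910049-49910145, before the gene. Capitals mark a match to a motif searched on both strands.
Slc17a6: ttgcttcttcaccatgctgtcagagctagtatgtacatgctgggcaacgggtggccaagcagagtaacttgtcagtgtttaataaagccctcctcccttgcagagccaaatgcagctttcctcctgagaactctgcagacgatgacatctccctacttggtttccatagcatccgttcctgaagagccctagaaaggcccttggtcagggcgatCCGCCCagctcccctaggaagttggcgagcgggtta
Slc32a1: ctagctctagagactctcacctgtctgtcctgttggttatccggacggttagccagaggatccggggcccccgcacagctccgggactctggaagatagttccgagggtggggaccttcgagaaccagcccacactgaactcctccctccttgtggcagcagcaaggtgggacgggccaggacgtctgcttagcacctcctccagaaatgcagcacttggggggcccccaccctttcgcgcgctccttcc
Gad1: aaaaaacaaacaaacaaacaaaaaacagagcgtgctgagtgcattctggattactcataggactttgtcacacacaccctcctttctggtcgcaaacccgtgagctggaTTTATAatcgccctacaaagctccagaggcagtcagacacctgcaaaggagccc
Slc6a5: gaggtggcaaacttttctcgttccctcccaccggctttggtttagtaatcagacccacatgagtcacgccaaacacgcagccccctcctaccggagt

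Motifs were searched in the 250 bases before each RefSeq start. The TATA box (TATAAA) was found at Gad1, where it is printed on the opposite strand as TTTATA, and at 12.4% of all 32851 promoters. The GC box (GGGCGG) was found at Slc17a6, printed as CCGCCC, and at 32.7% of promoters, and Gad1 held another 8 bases before its start, past the stretch shown. The CCAAT box (CCAAT, 33.8% of promoters), an E-box (CAGCTG, 13%) and a homeodomain core (TAATTA, 4.84%) were not found at these starts of the 4 genes. The windows of Slc32a1 and Slc6a5 held none of the motifs. G and C made up 62.4% of the window of Slc32a1, 58% of Gad1, 53.2% of Slc17a6 and 50.4% of Slc6a5, where the median promoter had 52.4%. A match describes letters only, and a missing match says nothing of the factor.

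Of the 8 genes, 7 passed the minimum level and were tested. None of the 7 had an unadjusted limma p under 0.05, where 990 of 17088 genes did (5.79%), and none of the 17088 had an adjusted p under 0.05 (0%). The libraries labelled SMA all lay above those labelled control for Slc32a1 and Gad1, as they did for 10.3% of all genes tested. They all lay below for none of the 8, against 6.67% of all genes. The 7 genes had a median log2 fold change of 0.27 against 0.04 over all genes, and of 0.04 against 0.0016 without control replicate 2. With so few genes, nothing particular to the group is read from these shares.

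**Figure D2:**
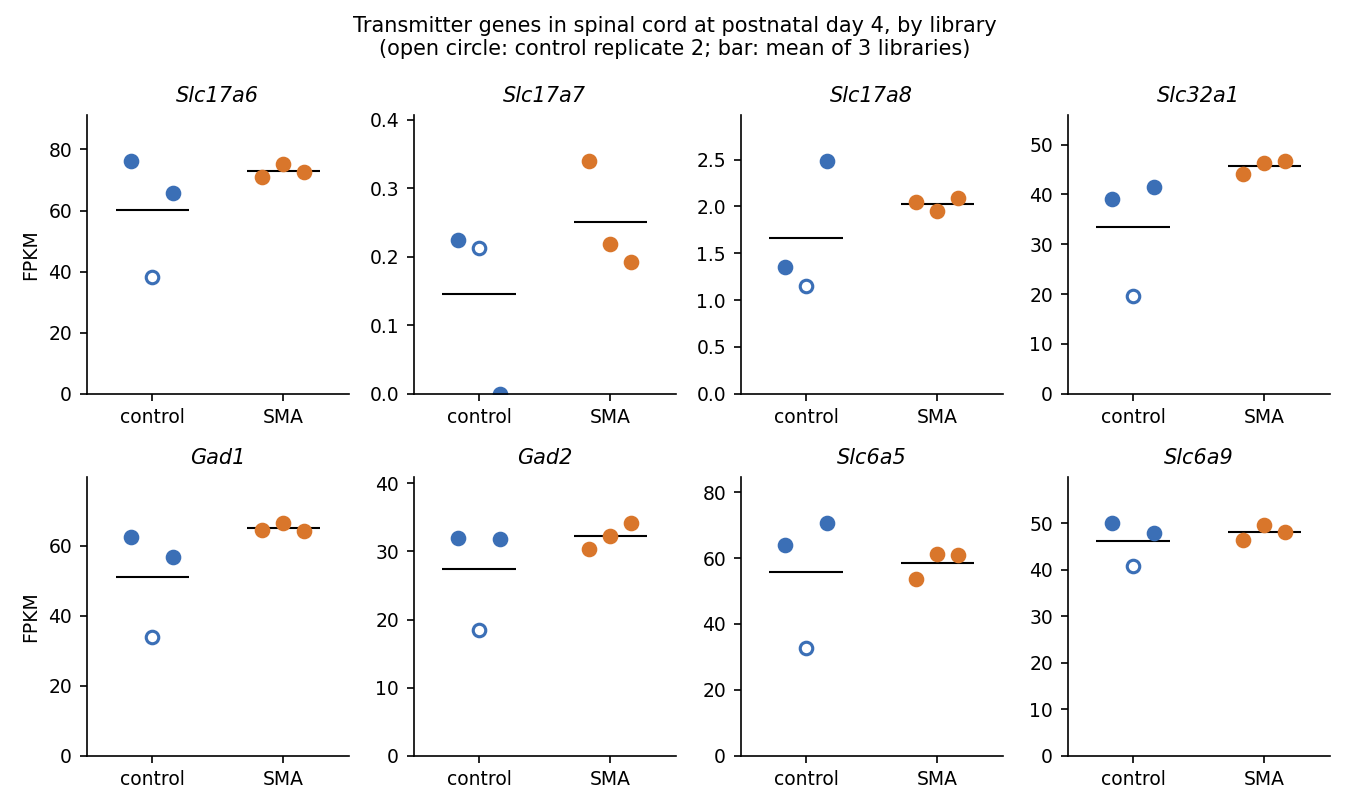
FPKM of each of the 8 transmitter genes in each library, control in blue and SMA in orange; the open circle is control replicate 2 and bars are means of 3 libraries. The libraries labelled SMA lie above all control libraries for Slc32a1 and Gad1, and control replicate 2 is the lowest library for every gene but Slc17a7.

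Slc17a6 encodes VGLUT2, the main vesicular glutamate transporter of spinal interneurons, and lies on chromosome 7 from 51622006 to 51671119 (GRCm38). It was at 76.1, 38.3 and 65.9 FPKM in control and at 71.0, 75.3 and 72.5 FPKM in SMA. The SMA libraries fell between the higher control libraries, and the groups overlapped. The mean was 60.1 ± 19.6 FPKM in control and 73.0 ± 2.16 FPKM in SMA (SD, n = 3). The log2 fold change was 0.33 (standard error 0.24, 95% interval -0.25 to 0.92, limma adjusted p = 0.683). Without control replicate 2 it was 0.04, with an interval of -0.13 to 0.21.

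Slc17a8 encodes VGLUT3, found in few spinal neurons, on chromosome 10 from 89574020 to 89621253. It was at 1.36, 1.15 and 2.48 FPKM in control and at 2.05, 1.95 and 2.09 FPKM in SMA. Control replicate 3 was the highest and control replicate 2 the lowest of the 6, with the SMA libraries close together between them. The log2 fold change was 0.22 (standard error 0.20, limma adjusted p = 0.694), and 0.08 without control replicate 2 (95% interval -0.35 to 0.51).

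Slc17a7 encodes VGLUT1, which in the cord sits mainly in terminals of sensory and corticospinal axons, whose cell bodies and most of whose mRNA lie outside it. On chromosome 7 from 45163949 to 45176142, it was at 0.225, 0.212 and 0 FPKM in control and at 0.339, 0.219 and 0.192 FPKM in SMA. The groups overlapped, and the gene stayed under the minimum level for the test. The difference of mean log2(FPKM + 1) was 0.13 (exact two-sided permutation test, p = 0.5), or 0.17 without control replicate 2 (exact two-sided permutation p = 0.4). Where both genes were above 0, Slc17a7 stood at between 0.00265 and 0.00554 of Slc17a6 in the same library.

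Markers of sensory ganglia, forebrain and cerebellum were set beside Slc17a7, and whether they mark the cells that make it was not tested. The 6 sensory ganglion markers summed to 2.17, 0.716 and 1.18 FPKM in control and to 3.95, 2.43 and 1.45 FPKM in SMA, with Pirt the most abundant. Of these markers Avil alone had its SMA libraries (0.722, 0.431 and 0.296 FPKM) all above control (0.0922, 0.0964 and 0.117 FPKM), and it is named because of these values. Of the genes tested 10.3% had their SMA libraries all above control, but Avil lay under the minimum level and was not among those tested. Prdm12 and Mrgprd were at 0 in control replicate 2. SMA replicate 1 was highest for both the ganglion sum and Slc17a7, and the part of ganglion RNA in the values was not tested. Of 5 forebrain markers, 4 were listed and summed to 5.45 to 11.8 FPKM, mostly from Neurod6. The 5 cerebellar markers summed to 2.08 to 4.67 FPKM, led by Neurod1, and Gabra6 was at 0 in 5 libraries and Atoh1 in 4.

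Slc32a1 loads vesicles of both GABA and glycine neurons, and lies on chromosome 2 from 158610767 to 158615748. It was at 39.2, 19.5 and 41.6 FPKM in control and at 44.1, 46.4 and 46.7 FPKM in SMA. Every library labelled SMA lay above every library labelled control, with or without control replicate 2. The mean was 33.4 ± 12.1 FPKM in control and 45.7 ± 1.40 FPKM in SMA (SD, n = 3). The log2 fold change was 0.51 (standard error 0.27, 95% interval -0.14 to 1.17, limma adjusted p = 0.683), and the exact two-sided permutation p was 0.1, the smallest that 3 libraries against 3 can give. With that library left out it was 0.18 (standard error 0.06, 95% interval 0.04 to 0.32, limma adjusted p = 0.408). The gene then passed an unadjusted p under 0.05, as 1736 of 16574 genes did (10.5%).

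Gad1 and Gad2 share the making of GABA, the product of Gad1 through the whole cell and that of Gad2 largely at synaptic terminals. Gad1, on chromosome 2 from 70553072 to 70602014, was at 62.5, 34.0 and 56.6 FPKM in control and at 64.6, 66.4 and 64.1 FPKM in SMA. The SMA libraries again lay above all control libraries, although SMA replicate 3 exceeded control replicate 1 by little. The log2 fold change was 0.39 (standard error 0.22, limma adjusted p = 0.683; exact two-sided permutation p = 0.1), and 0.13 without control replicate 2 (95% interval -0.02 to 0.27).

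Gad2, on chromosome 2 from 22622205 to 22693874, was at 31.9, 18.5 and 31.8 FPKM in control and at 30.3, 32.3 and 34.1 FPKM in SMA. Here control replicates 1 and 3 lay within the SMA range. The log2 fold change was 0.27 (standard error 0.21, limma adjusted p = 0.683), and 0.02 without control replicate 2 (95% interval -0.14 to 0.18). Within a library, Gad1 exceeded Gad2 by a factor of 1.96, 1.83 and 1.78 in control and of 2.13, 2.05 and 1.88 in SMA. These ratios overlapped between the groups (exact two-sided permutation p = 0.2), also without control replicate 2.

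Slc6a5 encodes GlyT2, the transporter that refills glycinergic terminals, on chromosome 7 from 49910146 to 49963856. It was at 63.9, 32.6 and 70.6 FPKM in control and at 53.5, 61.2 and 60.9 FPKM in SMA. The SMA libraries lay below control replicates 1 and 3 and above control replicate 2. Over all 6 libraries the log2 fold change was 0.14 (standard error 0.28, 95% interval -0.53 to 0.82, limma adjusted p = 0.846). Without control replicate 2 its sign turned, to -0.20 (standard error 0.08, 95% interval -0.38 to -0.01, limma adjusted p = 0.451), and the groups no longer overlapped (exact two-sided permutation p = 0.1, the smallest possible with 3 against 2). SMA libraries then averaged 87.1% of control.

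Slc6a9 encodes GlyT1, the glycine transporter of astrocytes, on chromosome 4 from 117834506 to 117875198. It was at 49.9, 40.7 and 47.8 FPKM in control and at 46.4, 49.7 and 48.1 FPKM in SMA, the narrowest range of the 6 more abundant genes. The groups overlapped, and the log2 fold change was 0.06 (standard error 0.11, 95% interval -0.20 to 0.32, limma adjusted p = 0.826), or -0.025 without control replicate 2 (95% interval -0.16 to 0.11). Beside it, the 7 astrocyte markers summed to 640, 504 and 636 FPKM in control and to 643, 699 and 647 FPKM in SMA, with Aldoc the most abundant.

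**Figure D3:**
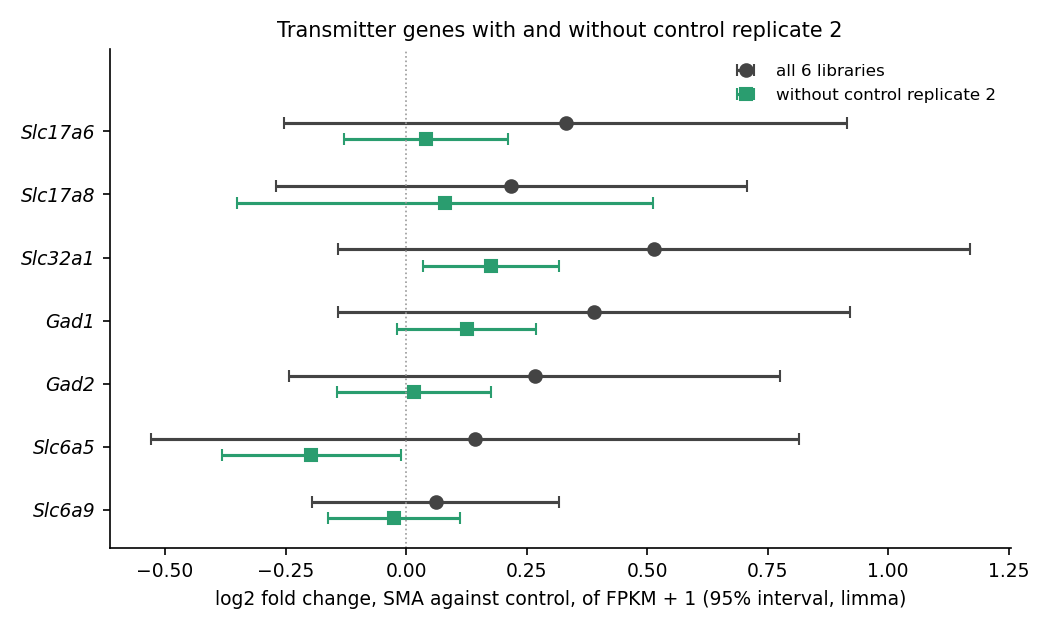
Log2 fold change of FPKM + 1, SMA against control, with its 95% interval from limma for the 7 transmitter genes tested, over all 6 libraries (circles) and without control replicate 2 (squares). The intervals without control replicate 2 are shorter, and those of Slc32a1 (0.04 to 0.32) and Slc6a5 (-0.38 to -0.01) leave out 0 on opposite sides.

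Without control replicate 2, Slc32a1 and Slc6a5 thus moved in opposite directions. Of the 7 genes, Slc32a1 was higher and Slc6a5 lower at an unadjusted p under 0.05, where 5.27% of all genes were higher and 5.2% lower. An adjusted p under 0.05 was reached by 2 genes (0.0121%), neither of them a transmitter gene. The SMA libraries all lay above control for Slc32a1 and Gad1, where 14.2% of all genes did, and all below for Slc6a5, where 13.9% did.

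The ratio of 2 genes of the same library does not depend on how that library was scaled. Slc6a5 exceeded Slc32a1 by a factor of 1.63, 1.67 and 1.70 in control and of 1.21, 1.32 and 1.30 in SMA replicates 1 to 3. Here control replicate 2 stood between the other control libraries, and all SMA libraries lay below all control libraries. The mean ratio was 1.67 ± 0.0335 in control and 1.28 ± 0.0578 in SMA (SD, n = 3), a log2 difference of -0.38, or 76.7% of the control ratio. The difference exceeded the pooled spread of the log2 ratio (SD 0.0510) several times over. Its exact two-sided permutation p was 0.1, the smallest possible, and 0.4 adjusted over the 8 ratios examined. Leaving out any library kept the log2 difference between -0.41 and -0.35.

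This ratio also carries the difference of Slc32a1 itself. For comparison, 16784 other genes were used, those among the genes tested that were above 0 in every library. Of these, 39.2% likewise had a ratio to Slc32a1 that was lower in all SMA libraries than in all control libraries. The median log2 difference of all 16784 was -0.47. Gad2 and Slc6a9 were among the 39.2%, with log2 differences of -0.25 and -0.47. Slc6a5 differed from Slc6a9 in its spread, since the ratio of Slc6a9 to Slc32a1 was 1.27, 2.09 and 1.15 in control and 1.05, 1.07 and 1.03 in SMA. Gad1 did not follow, with a ratio to Slc32a1 of 1.59, 1.74 and 1.36 in control and 1.46, 1.43 and 1.37 in SMA.

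Slc6a5 was also set against the genes of GABA synthesis. The sum of Gad1 and Gad2 exceeded Slc6a5 by a factor of 1.48, 1.61 and 1.25 in control and of 1.77, 1.61 and 1.61 in SMA. The SMA libraries lay above control, but control replicate 2 and SMA replicate 2 differed by less than 0.01 of the ratio. The log2 difference was 0.21 (pooled SD 0.14), and leaving out control replicate 3 gave 0.11, where leaving out control replicate 2 gave 0.29. Slc6a9 to Slc6a5 was 0.782, 1.25 and 0.678 in control and 0.867, 0.811 and 0.790 in SMA, with overlapping groups. Its log2 difference was -0.08, and it turned to 0.17 without control replicate 2, with SMA above control.

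The balance of glutamate against inhibitory loading overlapped between the groups over all 6 libraries. Slc17a6 exceeded Slc32a1 by a factor of 1.94, 1.96 and 1.59 in control and of 1.61, 1.62 and 1.55 in SMA. Control replicate 3 lay among the SMA libraries, and the log2 difference was -0.19 (pooled SD 0.13, exact two-sided permutation p = 0.3). It was -0.14 without control replicate 2, where the groups still overlapped. Without control replicate 3, however, it was -0.29, and the SMA libraries lay below both remaining control libraries (exact two-sided permutation p = 0.1, the smallest possible). With Slc17a7 and Slc17a8 added to Slc17a6, the ratio was 1.98, 2.03 and 1.65 in control and 1.66, 1.67 and 1.60 in SMA. Slc17a8 stood at 0.0178 to 0.0377 of Slc17a6 in control and at 0.0260 to 0.0288 in SMA. Its log2 difference was 0.03 over all 6 libraries and 0.10 without control replicate 2, and it turned to -0.27 without control replicate 1, the lowest for this ratio.

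**Figure D4:**
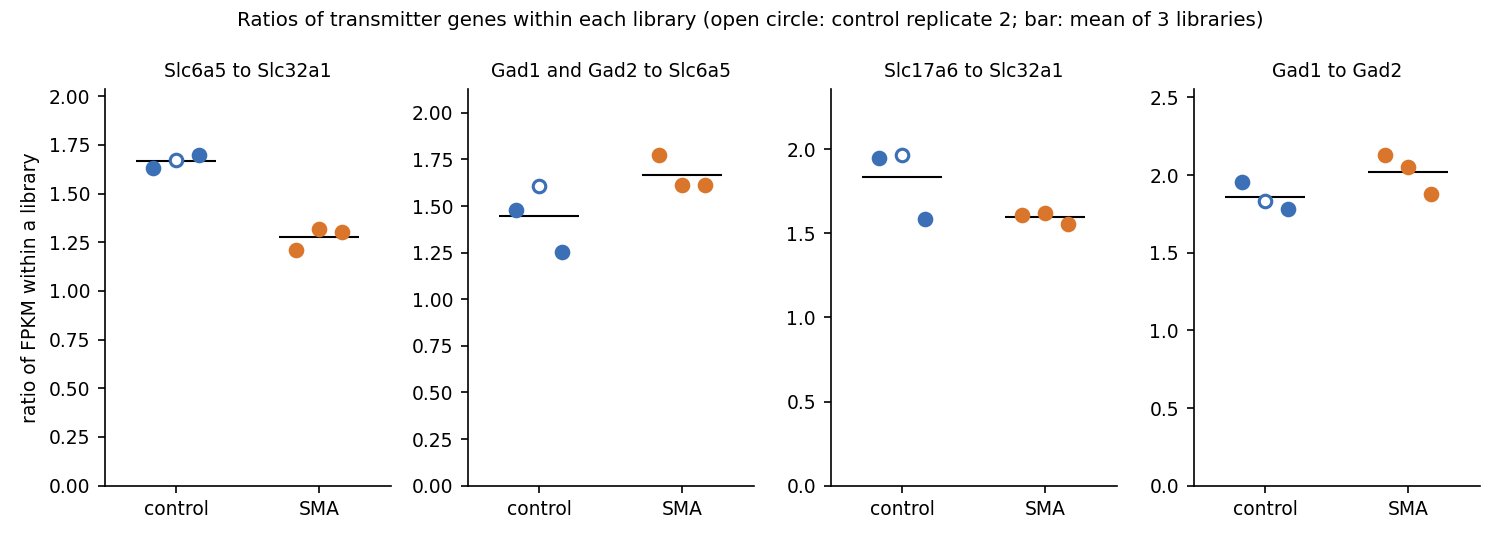
Ratios of FPKM within each library for 4 pairings of transmitter genes, control in blue, SMA in orange, with control replicate 2 open and bars at means of 3 libraries. The ratio of Slc6a5 to Slc32a1 lies at 1.63 to 1.70 in control and at 1.21 to 1.32 in SMA, while Slc17a6 to Slc32a1 and Gad1 to Gad2 overlap.

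Ranked by FPKM, which is scaled to gene length, Slc17a6 came first in every SMA library, followed by Gad1, Slc6a5, Slc6a9, Slc32a1, Gad2, Slc17a8 and Slc17a7. In SMA, Slc6a9 (46.4 to 49.7 FPKM) and Slc32a1 (44.1 to 46.7 FPKM) overlapped, and the other neighbours did not. The order differed in control. Slc6a5 ranked above Gad1 in control replicates 1 and 3 and below it in control replicate 2, where Slc6a9 ranked first. Slc17a8 and Slc17a7 came last in all 6 libraries.

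Scaling to the geometric mean of the 14 neuron markers shifts all genes of a library alike and leaves the ratios above as they are. Log2 fold changes were then 0.24 for Slc32a1, 0.11 for Gad1, 0.05 for Slc17a6 and 0.04 for Slc17a8. They were -0.011 for Gad2, -0.14 for Slc6a5 and -0.22 for Slc6a9, while the median of all genes moved to -0.20. The neuron markers themselves summed to 3402, 2519 and 3834 FPKM in control and to 3661, 3792 and 3878 FPKM in SMA, with Meg3 the most abundant. The 6 motor neuron markers, which belong to the cells lost in SMA, summed to 58.2, 39.3 and 88.3 FPKM in control and to 58.1, 65.0 and 60.5 FPKM in SMA, led by Prph. Neither sum separated the groups, although 5 of the 14 neuron markers were higher in every SMA library, where 10.3% of all genes were.

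Some of these loci are shared with other genes, and the strand used in counting is not given in the sources used here. Slc32a1 overlaps the antisense gene Gm14205, absent from the lists of 5 libraries and at 0.142 FPKM in SMA replicate 2. The locus deposited with the FPKM of Gad1 is wider than the gene, from 70489940 to 70602014, and is shared with Erich2, Erich2os and Gad1os. Gad1os, on the other strand, was at 0 to 0.256 FPKM. The deposited locus of Slc6a9 likewise runs on to 117883487. It takes in B4galt2 on the other strand, at 22.9 to 33.3 FPKM, so that a part of the reads of Slc6a9 could not be told apart if strand was not used. Slc17a6 holds Gm45072 on its own strand, at 1.26 to 3.62 FPKM.

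The genes with the most similar profile were found for the 7 transmitter genes whose mean reached 1 FPKM. The measure was the root mean square difference of centred log2(FPKM + 1) over the 6 libraries, and 15410 other genes were compared. Nearest to Slc17a6 were Stmn2 (0.030), a regulator of microtubules in growing axons, Gabra5 (0.030), a subunit of GABA-A receptors, and Lancl1 (0.035). Nearest to Slc32a1 were Synpr (0.039), a protein of synaptic vesicles, Tspan17 (0.048) and Ttc9b (0.049). Nearest to Gad1 were Slc8a2 (0.025) and Slc8a1 (0.029), sodium-calcium exchangers, and Cnih2 (0.026), a partner of AMPA receptors.

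All 21 neighbours were lowest in control replicate 2, as the 7 genes were and as 44.9% of all genes tested were. Neighbours resemble their gene by selection, and likeness was not measured without that library. Synpr was at 27.8, 13.5 and 27.2 FPKM in control and at 30.7, 32.1 and 33.4 FPKM in SMA. Nearest to Gad2 were the acid-sensing channel gene Asic1 (0.021), Camta1 (0.022) and Jazf1 (0.024), and nearest to Slc17a8 were Adam11 (0.032), Kndc1 (0.041) and Sulf1 (0.043).

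Nearest to Slc6a5 were Nrsn2 (0.030), Ankrd29 (0.037) and Prepl (0.040), and Nrsn2 was at 20.9, 9.87 and 21.6 FPKM in control and at 16.8, 19.0 and 19.0 FPKM in SMA. Nearest to Slc6a9 were Slc4a4 (0.016), a sodium bicarbonate cotransporter of astrocytes, Eml4 (0.022) and Clcn3 (0.022). Among the transmitter genes themselves, Slc17a6 and Gad1 were the closest pair (0.046) and Slc32a1 and Slc6a9 the farthest apart (0.341).

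The genes around the 8 were taken from a list of 27 that make, recycle or break down the 3 transmitters. All 27 were tested, 1 was lower and 0 were higher at an unadjusted limma p under 0.05, where 2.39% of all genes were lower and 3.4% higher, and 0 had an adjusted p under 0.05. Their median log2 fold change was 0.02 against 0.04 over all genes. Without control replicate 2, 1 was lower and 3 were higher, where 5.2% of all genes were lower and 5.27% higher, with 0 at an adjusted p under 0.05 and a median of 0.0055 against 0.0016.

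The lower gene in both fits was Slc38a5, which encodes a transporter of glutamine, serine and glycine. It was at 6.68, 9.62 and 8.62 FPKM in control and at 3.61, 4.24 and 3.81 FPKM in SMA. All SMA libraries lay below all control libraries, as they did for 2 of the 27 genes and for 6.67% of all genes tested. The log2 fold change was -0.92 (standard error 0.15, 95% interval -1.27 to -0.57, limma adjusted p = 0.683), and -0.82 without control replicate 2 (limma adjusted p = 0.221).

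Slc38a5 is known in endothelium of the brain and in red cell precursors, and markers of both were set beside it. The 8 endothelial markers, a list added after the value of Slc38a5 was seen, summed to 81.0, 85.1 and 91.8 FPKM in control and to 71.4, 61.8 and 62.7 FPKM in SMA. Of these, 3 were lower in every SMA library without overlap, where 6.67% of all genes were, and none was at 0. The most abundant, Cldn5, a tight junction gene, was at 25.8, 20.4 and 25.0 FPKM in control and at 16.4, 15.7 and 14.4 FPKM in SMA (log2 fold change -0.58, standard error 0.12, limma adjusted p = 0.683; -0.68 without control replicate 2). Erythroid markers did not follow Slc38a5, since their sum was 18856 FPKM in control replicate 2 and at most 1863 FPKM elsewhere, while Slc38a5 was 1.26 times the mean of the other control libraries there. The part of endothelial RNA in the level of Slc38a5 was not tested.

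Among the higher genes in the fit of 5 libraries, Gcsh, a protein of the glycine cleavage system, was at 5.13, 10.6 and 5.58 FPKM in control and at 6.99, 6.04 and 7.39 FPKM in SMA, and its log2 fold change went from 0.0041 to 0.29 without control replicate 2 (limma adjusted p = 0.443).

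The most abundant gene around each transmitter is given next. Slc6a11, the GABA transporter GAT3 of astrocytes, was at 228, 156 and 220 FPKM in control and at 230, 234 and 238 FPKM in SMA. Its SMA libraries all lay above control, as they did for 3 of the 27 genes and for 10.3% of all genes tested. Glud1, glutamate dehydrogenase, was at 153, 239 and 149 FPKM in control and at 150, 159 and 149 FPKM in SMA. Dld, a subunit shared by the glycine cleavage system and other mitochondrial complexes, was at 43.5, 39.3 and 38.4 FPKM in control and at 41.3, 39.4 and 42.4 FPKM in SMA. The groups overlapped for Glud1 and Dld. Log2 fold changes over 6 libraries and over the 5 that leave out control replicate 2 were 0.24 and 0.06 for Slc6a11, -0.20 and 0.015 for Glud1, and 0.02 and 0.0044 for Dld.

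**Figure D5:**
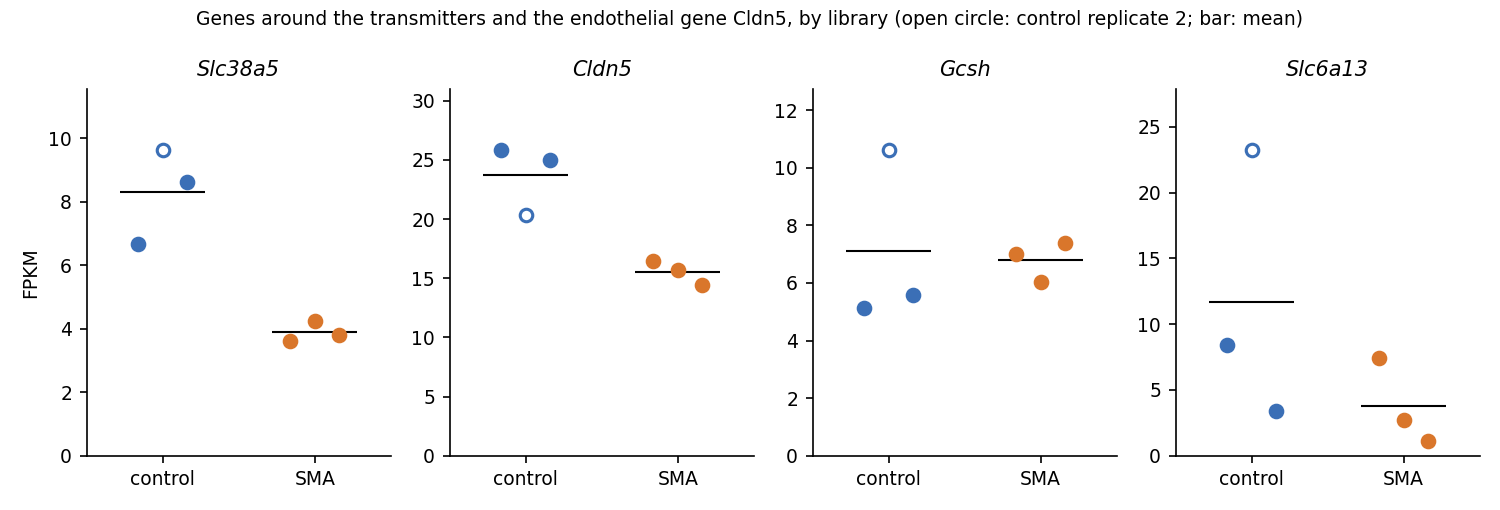
FPKM by library of Slc38a5, Gcsh and Slc6a13 from the genes around the 3 transmitters, and of the endothelial gene Cldn5; control in blue, SMA in orange, control replicate 2 open, bars at means of 3 libraries. Slc38a5 and Cldn5 are lower in every SMA library, and Gcsh and Slc6a13 overlap.

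Of the 27 genes, 11 were highest in control replicate 2, where the hepatocyte markers were highest and 24.7% of all genes tested were. Another 12 of the 27 were lowest there, as 44.9% of all genes tested were. The highest were 5 of 15 genes around glutamate, 1 of 5 around GABA and 5 of 7 around glycine, and the lowest were 7, 4 and 1 of these. The following genes were picked after their values were seen. Gls2, the liver type of glutaminase, was at 13.6 FPKM in control replicate 2 and at 1.53 to 2.28 FPKM elsewhere. Shmt1, which turns serine into glycine in the cytosol, was at 20.9 FPKM there and at 0.535 to 0.983 FPKM elsewhere. Shmt1 was lower in every SMA library, as 6.67% of all genes tested were, and Gls2 overlapped. Gls2 had a log2 fold change of -0.69, or 0.11 without that library, and Shmt1 of -1.35, or -0.19.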

How the data were processed

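RNA of whole spinal cord was depleted of ribosomal RNA and made into strand-specific libraries. The authors aligned reads and deposited FPKM for each gene and library; their processing notes name HISAT2, Cufflinks and mm10, without versions. Of the genes, 99.34% were found by identifier in GENCODE M21. Groups and replicate numbers came from the labels, and the members and lists were chosen with earlier results of these data known. Values were compared with lmFit and eBayes (trend) of limma 3.58.1 in R 4.3.3, with no covariate and two-sided p-values, after a test on simulated data. The study's methods describe DESeq on read counts, which were not used here. Exact permutation tests used all assignments of libraries. Named were the 8 genes, genes from among those around them that passed an unadjusted p of 0.05 in either fit or had the highest mean per transmitter, up to 3 leading genes of a marker list, and 3 nearest profiles per gene. Avil, Gabra6, Atoh1, Prdm12, Mrgprd, Gls2, Shmt1, Slc6a13 and the endothelial and fibroblast lists were added after their values were seen. Alternatives changed the pseudocount, the minimum level, the scaling, the variance model, the block and the libraries.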

Additional observations from a re-analysis of the deposited data

How the results depend on the processing

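Of 251 values under other settings, over 19 results, 14 reversed in sign, 15 moved and 222 did neither. A count moved when it differed by over 1.5 times, and Slc17a7 or a ratio when it differed by over 1 SD. The fold changes of the 7 tested genes were judged only by sign and by adjusted p, so their size could change: Slc32a1 went from 0.51 to 0.18 and Gad2 from 0.27 to 0.016 without control replicate 2. No setting brought a transmitter gene to an adjusted limma p under 0.05. Slc32a1, Gad1 and Slc17a8 stayed above 0 in all 19 fits, at 0.12 to 0.70, 0.07 to 0.56 and 0.04 to 0.43. The cause of the changes below was not tested.

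With 1 library omitted at a time, Slc6a5 ranged from -0.20 to 0.35, Slc6a9 from -0.025 to 0.12 and Slc17a6 from 0.04 to 0.53. Slc6a5 and Slc6a9 were negative only without control replicate 2. The log2 difference ranged from -0.74 to 0.17 for Slc17a7 to Slc17a6 and from -0.27 to 0.17 for Slc6a9 to Slc6a5, positive only without control replicate 2. For Slc17a8 to Slc17a6 it ranged from -0.27 to 0.27, negative only without control replicate 1. Genes at an unadjusted p under 0.05 numbered 339 (without SMA replicate 3) to 1752 (without control replicate 3), those at an adjusted p under 0.05 numbered 0 to 2, and genes around the transmitters 1 to 4, both highest without control replicate 2.

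Scaling to the neuron markers gave -0.011 for Gad2, -0.14 for Slc6a5 and -0.22 for Slc6a9. The same scaling without control replicate 2, chosen after the data were seen, gave -0.014 for Slc17a6, -0.039 for Gad2, -0.25 for Slc6a5 and -0.080 for Slc6a9, with 1529 genes at an unadjusted and 1 at an adjusted p under 0.05. A pseudocount of 0.1 gave 0.67 for Slc17a7, and 0.1 FPKM added to each gene gave a log2 difference of 0.33 for Slc17a7 to Slc17a6. With no value added, that ratio used 5 libraries, and Slc17a7 lay under the minimum level of most other fits. On the log2(FPKM + 1) scale, Slc17a8 to Slc17a6 gave -0.11.

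Of the 990 genes at an unadjusted p under 0.05, 409 were lower and 581 higher. The split was 706 and 48 with scaling to neuron markers, 386 and 338 with the same total, 590 and 332 with that total less liver and blood markers, and 565 and 528 with median ratio scaling.

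With the replicate number as a block, 659 genes and 2 genes around the transmitters had an unadjusted p under 0.05. Deviations of same-numbered libraries correlated at -0.037, 0.016 and 0.077, so the numbers were not taken as pairs.

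Since depth in reads is unknown, the counting error of low values such as those of Slc17a7 is unknown too.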

Other observations

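Slc6a13, the GABA transporter GAT2, is known in meningeal fibroblasts and in liver. It varied more than any other gene around GABA. It was at 8.43, 23.2 and 3.37 FPKM in control and at 7.42, 2.72 and 1.13 FPKM in SMA. The 6 fibroblast markers, a list added after these values were seen, summed to 162, 170 and 145 FPKM in control and to 177, 75.3 and 34.8 FPKM in SMA, with Col1a2 the most abundant and none at 0. SMA replicate 1 was the highest and SMA replicate 3 the lowest of the SMA libraries for both. The part of fibroblast RNA in the level of Slc6a13 was not tested. The 5 skeletal muscle markers summed to 0.717 to 3.58 FPKM in control and to 2.18 to 6.46 FPKM in SMA, led by Acta1.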
